A study of Mus musculus with 2 samples.

Results

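The 5438 regions described here are islands of Hdac1 binding that lie away from protein-coding genes and share no base with any Hdac2 island. They were taken from 30182 Hdac1 islands, of which they make up 18%, and were selected on 4 conditions: a position on chromosomes 1 to 19, a width below 5 kb, no base in common with the 20307 Hdac2 islands, and no protein-coding gene of the RefSeq annotation within 1 kb. The members were thus chosen by the measured width and the absence of Hdac2 overlap, and by gene distance, so these are given below as description only. The cells were nephron progenitor cells of wild-type mice, taken from E16.5 embryonic kidneys, grown in culture with passaging and fixed with formaldehyde. Their chromatin was precipitated with an antibody against Hdac1 (0.5 µg per the file label) or against Hdac2 (1 µg), with 1 library per antibody, so no difference has a replicate check and antibody, amount and library cannot be told apart. The parallel IgG and H3K4me3 control precipitations were not analysed here. The island lists hold no expression values, so the labelled cell type could not be checked against the RNA of its markers.

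Hdac1 and Hdac2 are closely related class I histone deacetylases, enzymes that remove acetyl groups from lysines of histone tails. They do not read DNA sequence themselves and reach chromatin as the catalytic subunits of corepressor complexes such as NuRD, Sin3 and CoREST, at promoters and at enhancers that can lie far from the genes they act on. In the developing kidney, nephron progenitors are the mesenchymal cells that either renew themselves or form the renal vesicle, the first epithelial stage of the nephron. Sequence between protein-coding genes also holds long non-coding RNA (lncRNA) genes, microRNA genes and the tRNA genes read by RNA polymerase III.

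An island is a run of neighbouring 200 bp windows with more reads than the background, joined by the program SICER. Each island carries 1 value deposited by the authors, a p or q value, with no label that says which. A smaller value means a stronger island, and "strength" below means this value. Intervals are 95% intervals that cover counting error only, and the read depth is unknown.

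Members at the starts of non-coding RNA genes are shown first, because they are the ones whose sequence the reference tables hold. Each promoter below spans 250 bases before to 50 bases after a RefSeq start site (build GRCm38.p6, the assembly of mm10) and lies inside a member, with every CG dinucleotide in capitals. B930059L03Rik lies at chr12:110591124-110591423, plus strand, and Gm32817, whose window is shared with Gm53058, at chr16:13447702-13448001, plus strand. Snhg17 lies at chr2:158361460-158361759, minus strand, and Snhg3 at chr4:132353637-132353936, minus strand. The last pair are host genes of small nucleolar RNAs, short RNAs that guide the chemical modification of other RNAs.
B930059L03Rik: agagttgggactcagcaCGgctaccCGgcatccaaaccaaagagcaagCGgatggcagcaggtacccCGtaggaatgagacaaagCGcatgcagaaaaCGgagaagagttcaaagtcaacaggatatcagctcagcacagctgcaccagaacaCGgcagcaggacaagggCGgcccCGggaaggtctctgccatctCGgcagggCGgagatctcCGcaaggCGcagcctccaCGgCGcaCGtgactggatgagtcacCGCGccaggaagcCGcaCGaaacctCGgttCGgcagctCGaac
Gm32817: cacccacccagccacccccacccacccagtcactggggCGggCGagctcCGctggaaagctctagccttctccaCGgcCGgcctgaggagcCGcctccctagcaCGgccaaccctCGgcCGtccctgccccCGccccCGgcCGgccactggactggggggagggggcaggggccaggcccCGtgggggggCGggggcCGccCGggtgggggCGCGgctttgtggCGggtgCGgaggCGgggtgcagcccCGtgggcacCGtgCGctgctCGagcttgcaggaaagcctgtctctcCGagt
Snhg17: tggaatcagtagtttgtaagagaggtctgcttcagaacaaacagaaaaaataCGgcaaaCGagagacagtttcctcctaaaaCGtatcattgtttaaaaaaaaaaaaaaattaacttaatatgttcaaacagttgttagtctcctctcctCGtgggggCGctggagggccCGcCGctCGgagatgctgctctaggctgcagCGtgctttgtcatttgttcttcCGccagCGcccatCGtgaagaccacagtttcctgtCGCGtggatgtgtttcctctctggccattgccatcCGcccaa
Snhg3: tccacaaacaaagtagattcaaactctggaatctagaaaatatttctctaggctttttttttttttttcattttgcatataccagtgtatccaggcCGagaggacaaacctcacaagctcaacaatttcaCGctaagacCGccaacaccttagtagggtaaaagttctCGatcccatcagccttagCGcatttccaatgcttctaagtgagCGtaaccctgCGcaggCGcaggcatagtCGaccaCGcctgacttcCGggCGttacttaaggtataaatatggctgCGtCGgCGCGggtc

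These 4 windows hold 23, 26, 15 and 16 CG dinucleotides in the order printed. Their CpG ratio, the observed number of CG dinucleotides over the number their C and G content predicts, was 0.83 for B930059L03Rik, 0.59 for Gm32817, 0.89 for Snhg17 and 1.02 for Snhg3. GC content was 76.7% in the Gm32817 window and 46.0% in the Snhg3 window. The members over them had values of 1.47e-79 (B930059L03Rik), 9.05e-65 (Gm32817), 6.15e-53 (Snhg17) and 1.45e-50 (Snhg3), which gave them ranks 6, 11, 19 and 25 among the 5438.

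Of 275 microRNA hairpins that RefSeq's sequence table gives and that lie between protein-coding genes, 13 had a member within 1 kb and 9 lay inside one. The mature microRNAs of the strongest 3 loci among these 13 hairpins are printed with the seed, bases 2 to 8, in capitals. The 20 mature sequences at all 13 hairpins had 20 different seeds, so no seed was shared.
miR-193b-5p: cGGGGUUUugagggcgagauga
miR-193b-3p: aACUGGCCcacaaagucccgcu
miR-203-5p: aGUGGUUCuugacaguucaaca
miR-203-3p: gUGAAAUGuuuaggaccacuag
miR-9-5p: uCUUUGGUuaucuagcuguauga
miR-9-3p: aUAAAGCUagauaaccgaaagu

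The hairpin of miR-193b (chr16:13449523-13449601, plus strand) lay inside the 3.4 kb member over the Gm32817 start, 8.2 kb from the nearest Hdac2 island. That of miR-203 (chr12:112130880-112130955, plus strand), a microRNA known from the differentiation of skin epithelium, lay inside a 1.8 kb member with a value of 3.15e-48, 2.4 kb from Aspg. Mir9-3 (chr7:79505264-79505353, plus strand), which encodes the neural microRNA miR-9, lay inside a 1.2 kb member with a value of 2.96e-38, 36.7 kb from Polg. Among the weaker loci, Mir196a-1, which sits in the Hoxb cluster and is known to act on Hox messages, lay 163 bp outside a member with a value of 1.48e-04.

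Members were mostly weak islands. Their median value was 4.36e-09 (3.03e-09 to 6.16e-09), and they ranged from 4.99e-93 to 9.79e-02. Only 655, or 12.0% (11.2% to 12.9%), were in the stronger 50% of the Hdac1 list, 3 were in its strongest 10% and 2686, or 49.4%, in its weakest 25%. Hdac1-only islands under 5 kb within 1 kb of the first or last base of a protein-coding gene (gene ends, n = 5948) were in the stronger 50% in 70.2% of cases. Those deeper inside genes (n = 6176) resembled the members, with 16.2%, and islands under 5 kb between genes that share bases with Hdac2 (n = 2916) had 47.7%. These shares compare islands of 1 library and have no test.

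**Figure D1:**
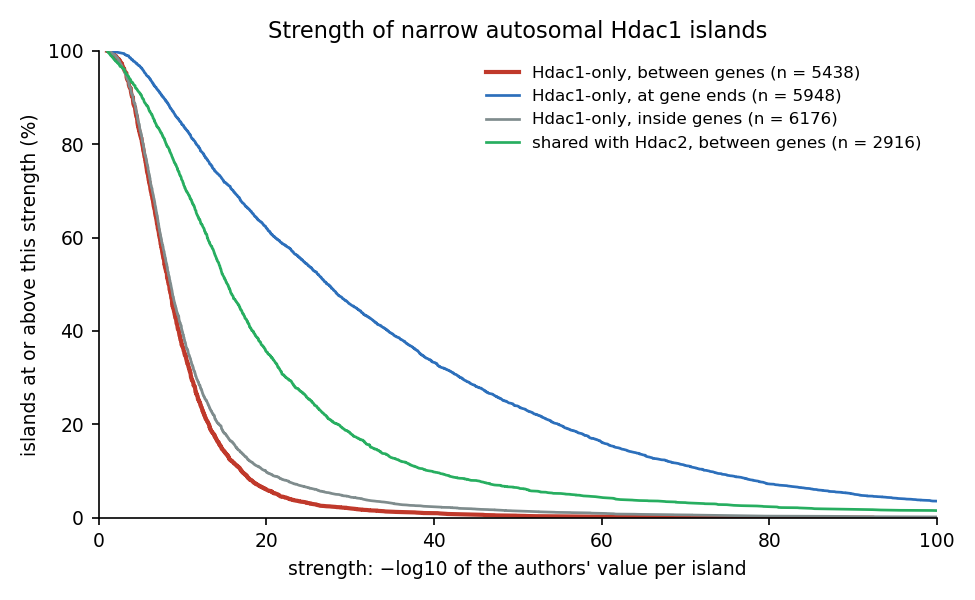
Share of narrow autosomal Hdac1 islands (vertical axis, percent) at or above a given strength, −log10 of the authors' value (horizontal axis, drawn up to 100), for 4 classes of island. Over most of the drawn range the curve of the 5438 members is the lowest. It runs beside that of the 6176 Hdac1-only islands inside genes, while that of the 5948 at gene ends is the highest.

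Member width had a median of 1.6 kb (quartiles 1.0 and 2.2 kb), and the members covered 9.0 Mb together. Strength did not simply follow width: the 950 members under 1 kb had a median value of 2.54e-10 (1.03e-10 to 5.53e-10), against 3.84e-08 (1.54e-08 to 7.68e-08) for the 1385 members of 2 to 3 kb. The limits of the rule fell in a thinly filled range: 7 members were 4.8 kb wide and 8 islands that met the other conditions were 5.0 kb wide. At the gene limit, 33 members lay 1000 to 1200 bp from a gene and 27 islands that met the other conditions lay 800 to 1000 bp away. At the Hdac2 limit, 1 member touched an Hdac2 island without sharing a base, and 5 islands left out shared a single 200 bp window.

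The strongest member was a 0.6 kb island at chr11:4461201-4461800, 19.1 kb from Mtmr3, a phosphoinositide phosphatase gene, with a value of 4.99e-93. It had rank 2467 in the Hdac1 list. Ranks 2 and 3 were a 1.2 kb island 24.9 kb from Erc2 (chr14:27596201-27597400, 1.90e-91) and a 0.6 kb island 6.2 kb from Disp3 (chr4:148229601-148230200, 1.32e-87). Rank 4 covered nearly all of the lncRNA gene C030034I22Rik (chr17:69416601-69419200, 1.27e-82). Ranks 5 to 10 lay near or at Terf2ip, B930059L03Rik, Nlrp5-ps, Gm46869, Stmn3 and Bicra, with values from 2.45e-80 to 3.41e-69. Of the 10 strongest members, 5 were under 1 kb wide, compared with 17.5% of all members, and 4 overlapped a non-coding gene. Of the strongest 100, 33 were under 1 kb wide and 50 lay at a non-coding gene or within 1 kb of one.

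Members lay a median of 35.5 kb (33.4 to 37.3) from the nearest protein-coding gene, with quartiles of 10.7 and 113.9 kb, and 72.5% lay within 100 kb. Shared islands between genes lay farther out, at a median of 49.8 kb (46.1 to 54.6). The median value was 2.34e-09 for the 675 members 1 to 5 kb from a gene, 9.76e-09 for the 434 members at 250 to 500 kb and 2.97e-09 for the 134 members over 500 kb away. The strongest 543 members lay a median of 25.8 kb from a gene. The farthest member, a 1.2 kb island inside the lncRNA gene Gm32985 (chr1:113932201-113933400), lay 1751 kb from Cntnap5a. The next lay in the transcribed pseudogene Gm5088, 1427 kb from Pcdh20, and in the lncRNA gene 1700019L22Rik, 1392 kb from Tenm3. The Gm5088 island was strong (1.15e-51) and the other two were weaker (3.23e-07 at Gm32985 and 8.28e-17 at 1700019L22Rik).

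**Figure D2:**
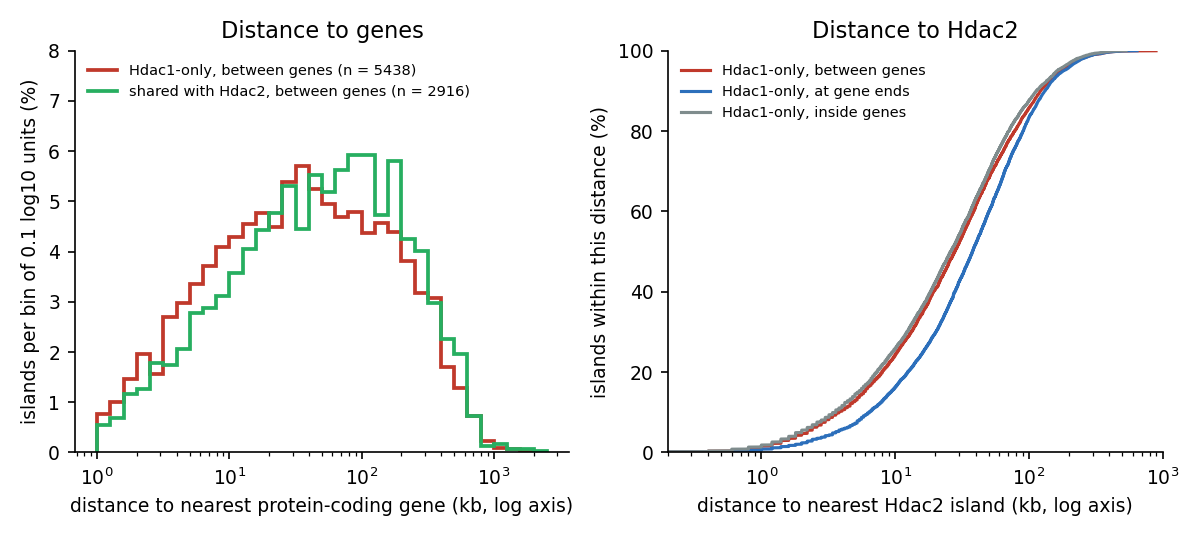
Left, distance from islands between genes to the nearest protein-coding gene (log axis, kb) as the percent of islands per bin, for the 5438 members and the 2916 islands shared with Hdac2. Right, cumulative percent of Hdac1-only islands within a given distance of an Hdac2 island (log axis, kb); members reach 24.0% at 10 kb and 85.7% at 100 kb.

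The nearest Hdac2 island lay at a median of 28.0 kb (26.6 to 29.2). Within 1 kb of an Hdac2 island lay 0.92% of members, within 10 kb 24.0% (22.9% to 25.1%) and within 100 kb 85.7%. The nearest other Hdac1 island lay at a median of 13.6 kb. These 2 distances are not comparable. The Hdac1 list is longer (30182 islands against 20307), and members were chosen for sharing no base with Hdac2. The nearest other member lay at a median of 46.2 kb (43.6 to 50.2). No other member lay within 10 kb for 4245 members, or 78.1%, and the other 1193 (21.9%) fell into 554 groups. How many groups their density alone would give was not computed. The largest groups held 5 members each. One spanned 31.2 kb at chr11:117385001-117416200, near Septin9, a cytoskeletal GTPase gene, and the other spanned 33.2 kb at chr8:121169201-121202400, near Foxl1, a forkhead factor of gut and kidney mesenchyme. Neither span held an Hdac2 island. Per megabase of sequence between genes, members ranged from 3.00 on chromosome 14 to 6.08 on chromosome 11, with 3.92 over all 19 autosomes.

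Of the members, 1639, or 30.1% (28.9% to 31.4%), overlapped a non-coding gene or lay within 1 kb of one. The share was 33.9% (32.2% to 35.6%) for shared islands between genes, 16.9% at gene ends and 10.8% inside genes. Among the members it was 39.4% (35.4% to 43.6%) in the strongest 10% and between 25% and 31.4% in the other 9 bins of the same size.

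Counted over the 16998 autosomal non-coding genes that lie between protein-coding genes, 1303 had a member at the gene or within 1 kb (7.67%). Among lncRNA genes 1068 of 7105 did (15.0%, interval 14.2% to 15.9%), and 651 (9.16%) had a shared island. Members outnumber shared islands, 5438 against 2916, so their higher share of genes does not by itself show a preference for lncRNA genes. Among tRNA genes the order was the other way round, with 51 of 317 at a member (16.1%, interval 12.5% to 20.5%) and 88 (27.8%, interval 23.1% to 32.9%) at a shared island. MicroRNA genes, counted from the RefSeq gene table, which lists more of them than the sequence table has hairpins, gave 18 of 319 (5.64%) for both kinds of island. Shared islands were also the more frequent kind at small nuclear RNA genes, with 31 of 579 (5.35%) against 10 (1.73%) for members. Small nucleolar RNA genes had the same order, with 17 of 823 (2.07%) against 8 (0.972%) and overlapping intervals. Pseudogenes gave 132 of 7035 (1.88%) for members and 96 (1.36%) for shared islands. The remaining classes gave 16 of 820 (1.95%) and 10 (1.22%).

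**Figure D3:**
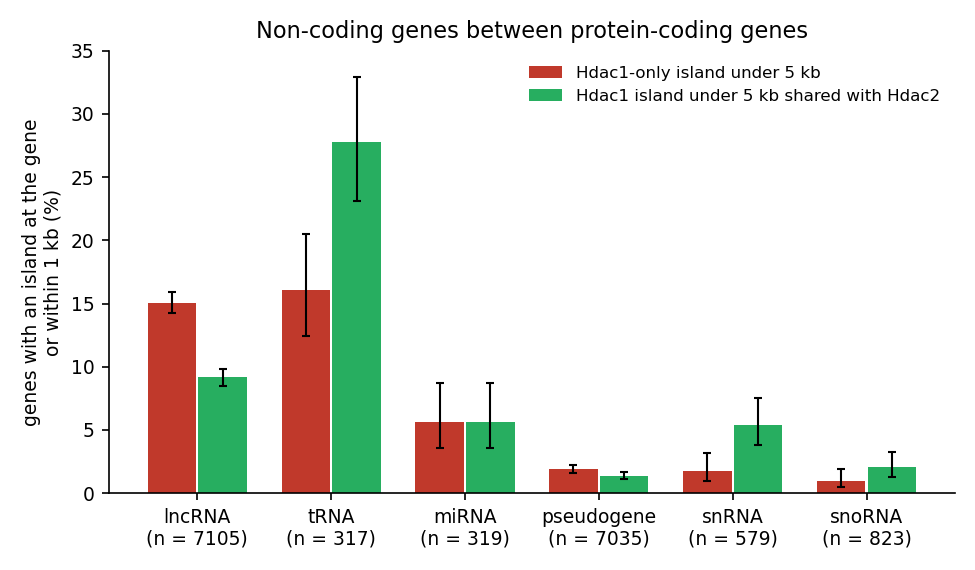
Percent of the non-coding genes between protein-coding genes that have an Hdac1-only island or a shared island under 5 kb at the gene or within 1 kb (vertical axis), by class of gene; error bars are 95% Wilson intervals. Shared islands exceed members at tRNA genes (27.8% against 16.1%) and at small nuclear and small nucleolar RNA genes. Members exceed shared islands at lncRNA genes (15.0% against 9.16%) and at pseudogenes. The shares are not adjusted for the number of islands, 5438 members and 2916 shared.

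Gene length moved with these counts: lncRNA genes with a member had a median length of 14.6 kb (13.4 to 16.3) and those without one 7.95 kb (7.67 to 8.28). In bins of 20% of the lncRNA genes, from the shortest to the longest, the share with a member was 8.44%, 12.2%, 11.8%, 16.7% and 26.0%. The part of length in the comparison between classes was not tested.

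At tRNA genes, which are all short, the members were strong: the 37 members there had a median value of 4.99e-16. The strongest was a 2.0 kb island over the isoleucine tRNA gene n-TIaat17 (chr17:83861201-83863200, 2.57e-51). A 3.4 kb island on chromosome 13 covered both n-TFgaa4 and n-TEctc11 (2.06e-39), and a 2.0 kb island on chromosome 1 covered n-TKctt25 and n-TKctt26 (2.98e-30), so tRNA genes of 1 island are not separate observations. Of the small nucleolar RNA genes, Snora73a and Snora73b lay inside the Snhg3 member, Snora26 inside a 2.0 kb member (9.40e-47) and Snora17 inside another (3.81e-36). Among the remaining classes were Rny3, a Y RNA (1.66e-19), and Terc, the RNA template of telomerase (2.10e-18). The strongest member at a small nuclear RNA gene was much weaker than these leaders, at 1.95e-16 beside Gm24424. Members at pseudogenes that themselves lie between protein-coding genes included those at 4632415L05Rik (5.64e-55), Gm5088 and Zfp520-ps (1.73e-44). Nlrp5-ps, with its stronger member, overlaps a protein-coding gene elsewhere along its span and is not in these counts of non-coding genes.

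Of a list of well-known long non-coding RNAs, 36 lie between genes and 20 of these had a member at the gene or within 1 kb, beside 15.0% of all lncRNA genes. The higher share was not particular to members. Any Hdac1 island was found at 32 of the 36, beside 23.5% of all lncRNA genes, and a shared island at 11, beside 9.16%. The median length of the 36, 7.40 kb, was close to the 8.69 kb of all 7105 lncRNA genes. The strongest after Snhg17 and Snhg3 was Mir9-3hg, the host of Mir9-3. Oip5os1 had a member with a value of 1.29e-31, and Norad, a cytoplasmic RNA that binds Pumilio proteins, one with 1.08e-28. Trp53cor1, a p53-induced RNA next to Cdkn1a, had a 1.8 kb member at chr17:29078001-29079800 (2.29e-22), and Hotair, a Hoxc cluster RNA, a 2.6 kb member (9.51e-14). Pvt1, beside Myc, had a weak one (2.87e-07). In the fixed 300-base promoter windows the list gave 9 of 29 genes under a member, and the 9 were Dubr, Halr1, Mir9-3hg, Mir99ahg, Morrbid, Oip5os1, Pantr2, Snhg17 and Snhg3. Of a list of known kidney and progenitor microRNAs, 3 of 45 between genes had a member (Mir9-3, Mir125b-2 and Mir196a-1), beside 5.64% of all microRNA genes.

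Of 5786 lncRNA genes with a promoter window between genes, 314 had a window under a member (5.43%). The 298 members over such a window had a median value of 7.07e-11 (1.03e-11 to 8.65e-10), and 59 of them (19.8%, interval 15.7% to 24.7%) were in the strongest 10% of members. Those at a non-coding gene but over no such window had a median of 2.69e-09 (11.6% in the strongest 10%), and those at no non-coding gene 6.90e-09 (8.66%).

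The 353 windows under members were richer in CpG than lncRNA windows without Hdac1 and poorer than those with both deacetylases. Windows with both carry an Hdac1 and an Hdac2 island of any width, whereas members are under 5 kb, so these sets are not matched. The median CpG ratio was 0.36 (0.32 to 0.39) under members, 0.20 (0.19 to 0.20) over 6375 windows without an Hdac1 island and 0.48 (0.42 to 0.52) over 268 windows with both Hdac1 and Hdac2. At protein-coding promoters with Hdac1 and no Hdac2 it was 0.73. A ratio of at least 0.6 was found in 20.7% (16.8% to 25.2%) of windows under members, in 3.59% of windows without Hdac1 and in 37.7% of windows with both. In bins of 20% of the lncRNA windows, from the CpG-poorest to the CpG-richest, the share under a member was 1.06%, 2.83%, 3.54%, 6.16% and 11.4%. The 66 members over a window with a ratio of at least 0.6 had a median value of 1.13e-15 (1.30e-21 to 2.82e-12) and the other 232 one of 8.42e-10 (6.04e-11 to 3.02e-09). GC content of the window (median 50.7% under members, 46.7% without Hdac1) moved with the CpG ratio, and its part was not tested.

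**Figure D4:**
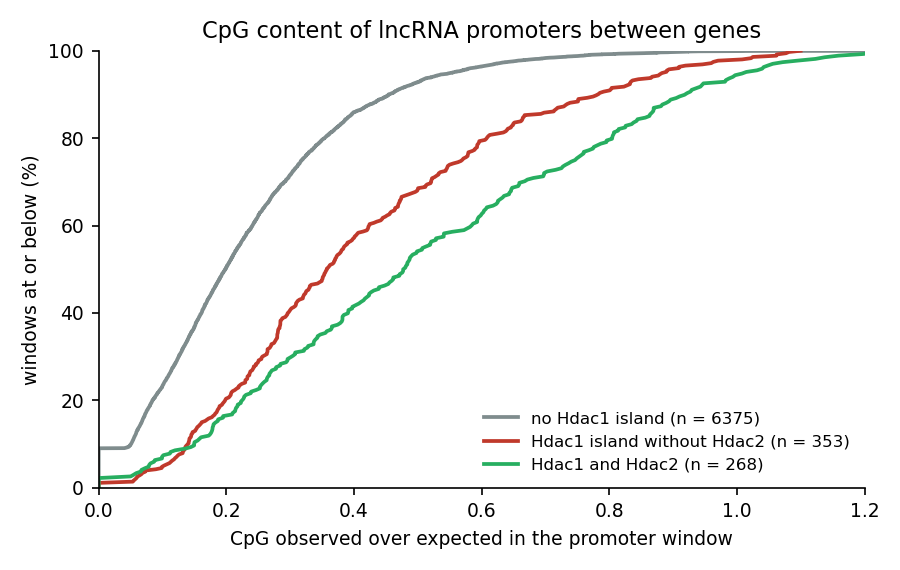
Cumulative percent of lncRNA promoter windows between genes (vertical axis) by CpG observed over expected (horizontal axis). Windows carry no Hdac1 island, a member (an Hdac1 island without Hdac2), or both an Hdac1 and an Hdac2 island of any width. The curve for members lies between the others, with medians of 0.20, 0.36 and 0.48.

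Motifs were searched as exact letters on both strands of the same windows. The SP/KLF box GGGCGGG was in 17.0% (13.4% to 21.3%) of windows under members, 3.64% of lncRNA windows without Hdac1, 22.8% of those with both deacetylases and 25.8% of all 31365 promoters. The ETS motif CCGGAAG was in 8.50%, 2.23%, 10.4% and 9.0% of the same sets. Both contain CG and so follow CpG content in part by their letters. The AP-1 site TGANTCA, which has no CG, had another order: it was in 13.6% (10.4% to 17.6%) of windows under members, 10.6% (9.84% to 11.4%) of those without Hdac1, 5.60% (3.42% to 9.03%) of those with both and 7.85% of all promoters.

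For the other motifs the shares are given under members, without Hdac1 and over all promoters. The CTCF core AGGNGGC was in 26.6%, 16% and 29.4%, and the NRF1 site GCGCATG in 3.12%, 1.55% and 3.90%. The GATA motif AGATAA was in 11.9%, 16.8% and 11.2%, and the TATAAA box in 14.7%, 17.6% and 13.6%. The shares were 20.4%, 17.0% and 16.3% for the E-box CAGCTG, 19.3%, 21.8% and 16.7% for the RUNX site TGTGGT, and 5.67%, 5.16% and 3.89% for the TEAD site ACATTCC. The TCF/LEF site ATCAAAG gave 3.40%, 5.38% and 3.76%, the Six2 site TCAGGTT 3.68%, 4.63% and 4.10%, and the cyclic AMP response element TGACGTC 1.70%, 1.49% and 3.25%. A match says only that these letters are present. Of the windows printed above, B930059L03Rik held matches for AP-1, NRF1 and the E-box, Gm32817 for SP/KLF and the CTCF core, Snhg17 for RUNX, and Snhg3 for ETS and the TATAAA box.

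The protein-coding gene nearest to a member usually carried Hdac1 itself: 85.9% (85.0% to 86.8%) of members had a nearest gene with an Hdac1 island at the gene or within 1 kb, and 64.7% had one with an Hdac2 island. A gene nearest to several members counts several times in these shares. Of the 3177 distinct nearest genes, 84.2% had an Hdac1 island and 59.0% an Hdac2 island. Over all 20665 autosomal protein-coding genes the shares were 68.4% and 41.2%. Counted per island, shared islands between genes gave 84.0% and 68.9%.

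Members were then counted around lists of protein-coding genes. Within 100 kb of the gene a member was found for 7798 of 20665 autosomal genes (37.7%), and for 3757 of the 9596 genes with at least 100 kb of between-gene sequence in that range (39.2%). Of 30 nephron progenitor genes 22 had one, with a median of 2 members per gene against 0 over all genes. The count was 21 of 30 for renal vesicle and early nephron genes, 25 of 32 for regulators of the signalling pathways that act in progenitors, 20 of 30 for proliferation and p53 genes, 13 of 20 for stroma, 12 of 20 for ureteric bud, 10 of 17 for endothelium and blood, 9 of 16 for podocyte and tubule, 17 of 34 for deacetylases and their partners and 11 of 29 for genes of distant lineages. The lists are small. The interval of the podocyte and tubule share, 33.2% to 76.9%, holds the 37.7% of all genes. So do those of the endothelium and blood, deacetylase and distant lineage shares. Among list genes with at least 100 kb of between-gene sequence, 20 of 27 progenitor and 16 of 21 renal vesicle genes had a member. The count was 19 of 24 for signalling regulators, 7 of 9 for endothelium and blood and 3 of 4 for podocyte and tubule. It was 11 of 17 for stroma, 7 of 11 for proliferation and p53, 7 of 12 for deacetylases, 7 of 15 for ureteric bud and 7 of 19 for distant lineages. Between-gene space differs between the lists, so members were also counted per megabase of between-gene sequence within 100 kb. This gave 14.0 for the progenitor list, 13.6 for proliferation and p53 genes, 12.0 for signalling regulators and 11.8 for deacetylases. Stroma had 11.6, ureteric bud 10.8, renal vesicle genes 8.88, podocyte and tubule 8.57 and endothelium and blood 8.04. Distant lineages had 6.18 and all genes 6.23. Shared islands were also denser around progenitor genes, at 8.59 per megabase against 2.70 over all genes. The lists were chosen with earlier results known and have no test.

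The 62 members near progenitor genes had a median value of 4.76e-08, against 3.78e-09 for all members within 100 kb of a gene. The medians of the other lists ran from 4.79e-10 for proliferation and p53 genes to 1.58e-07 for stroma. With members of the stronger 50% of the Hdac1 list alone, 4 of 30 progenitor genes (13.3%, interval 5.31% to 29.7%) had one within 100 kb, against 8.27% of all genes, 4 of 20 stroma genes, 4 of 20 ureteric bud genes, 1 of 30 renal vesicle genes, 8 of 30 proliferation and p53 genes and 0 of 16 podocyte and tubule genes.

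Pax2, a paired-box transcription factor of the progenitor and ureteric bud, had 5 members, and RefSeq's strand places all 5 upstream of its start. They lay 3.2, 19.2, 25.4, 53.8 and 62.0 kb from the gene with values of 1.82e-16, 3.11e-20, 1.81e-21, 6.13e-24 and 1.64e-14. All 5 were stronger than the median member, and none came closer than 10.6 kb to an Hdac2 island. Bmp7, a growth factor that keeps progenitors alive and primes them to differentiate, had 6 members, 5 on one side of the gene at 4.0 to 55.6 kb. Its members spanned the range of strength, from 4.95e-23 (25 kb away) to 6.73e-03 (4.0 kb away). The 5 members on that side lay 75.2 to 126.8 kb from the nearest Hdac2 island. The sixth, on the other side, lay 0.8 kb from one and nearer to the gene Rbm38 than to Bmp7.

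Sall1, a zinc-finger factor that binds the NuRD complex, had 4 members, 2 on each side, of which the strongest lay 22.4 kb away (4.09e-21). Wt1, a zinc-finger factor needed for the kidney to form, had 5 members among 10 Hdac2 islands within 100 kb, and 4 of the 5 lay 2.6 to 3.8 kb from an Hdac2 island. Its strongest member, 32.6 kb away (7.21e-15), lay nearer to Them7, and the one 88.5 kb away nearer to Eif3m. Meox1, a mesoderm homeobox gene, had 6 members, but 5 of these lay nearer to other genes (Etv4 and Sost). Osr1, an early marker of kidney mesoderm, had 1 member 2.8 kb away (1.05e-14), among 8 Hdac2 islands. Six2, the factor that keeps progenitors undifferentiated, had 2 members, at 16.1 kb (4.61e-08) and 97.3 kb (5.91e-06), on opposite sides. Uncx had 6 members, 1 of them nearer to Zfand2a, and Eya1 and Itga8 had 2 each. No member lay within 100 kb of Crym, Fgf9, Gdnf, Hoxa11, Hoxd11, Lin28b, Robo2 or Sall4.

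**Figure D5:**
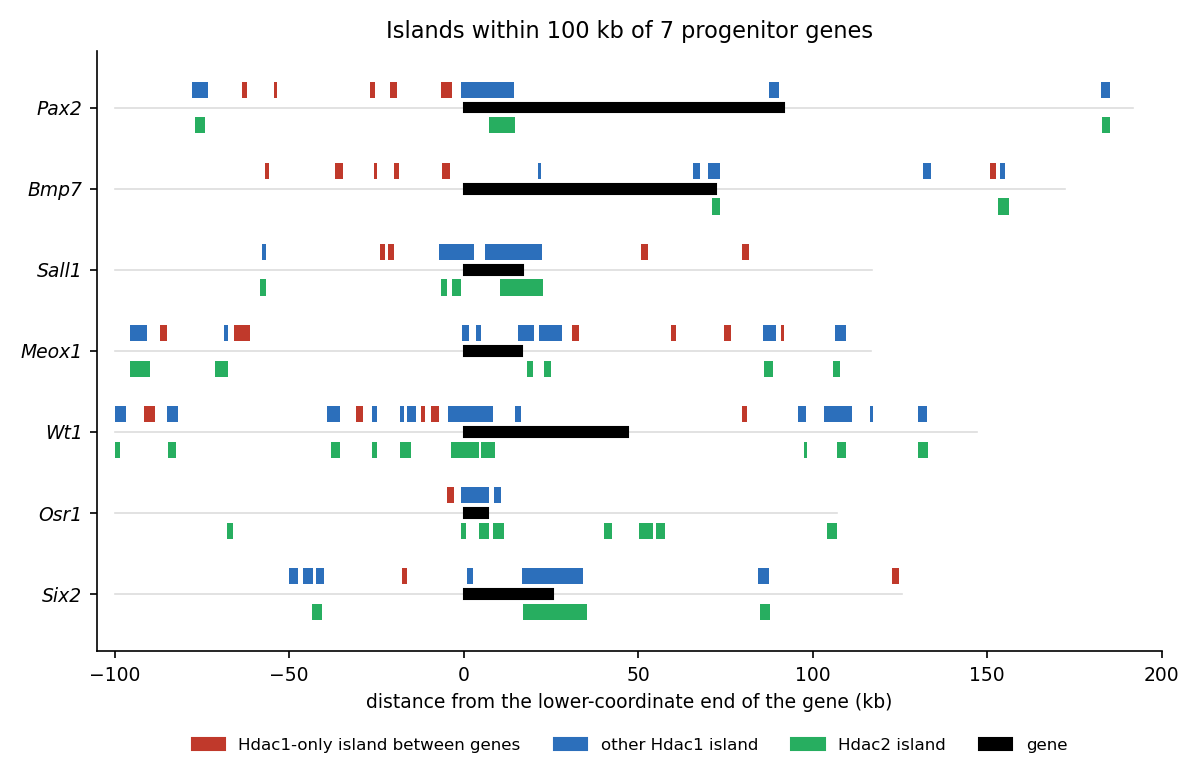
Islands within 100 kb of 7 progenitor genes; the horizontal axis is the distance in kb from the lower-coordinate end of each gene, drawn as a black bar, with Hdac1 islands above the line (members red, other Hdac1 islands blue) and Hdac2 islands below it (green). The 5 members of Pax2 all lie to the left of the gene, and those of Wt1 are interleaved with Hdac2 islands.

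In the renal vesicle list the strongest members lay near Sox4 (6.3 kb away, 1.26e-20), a transcription factor of nephron differentiation, and Sfrp2 (6.5 kb, 1.73e-14), a secreted Wnt antagonist. Emx2 (1.90e-13), Fgf8 (8.02e-13) and Dll1, a Notch ligand (3.21e-12), followed, while Wnt4, which drives the conversion to epithelium, had 1 member 70.3 kb away (3.94e-11). Among signalling regulators the leaders were Fgfr2, an FGF receptor (8.5 kb, 1.61e-20), Id4 (26.7 kb, 5.94e-19) and Id2 (7.7 kb, 2.31e-18), inhibitors of basic helix-loop-helix factors, Mycn (30.7 kb, 1.34e-17) and Bmp4 (82.3 kb, 3.16e-16). All 5 of these signalling members had the named gene as their nearest gene. In the renal vesicle list, the Fgf8 member lay nearer to Fbxw4, the Emx2 member nearer to Pdzd8 and the Wnt4 member nearer to Cdc42.

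In the proliferation and p53 list the strongest member lay 8.2 kb from Bbc3 (chr7:16299401-16300200, 5.68e-50), which encodes the p53-induced killer PUMA, and 1.4 kb from an Hdac2 island. The same list held Ccne1, a G1 cyclin (7.96e-33), Cdc20, an activator of the anaphase-promoting complex (3.91e-32), Mdm4, a p53 inhibitor whose member covers the 2 lysine tRNA genes named above (2.98e-30), and Cdkn1a, whose member is the one at Trp53cor1. Among the deacetylases and partners, Mta3, a NuRD subunit, had the n-TIaat17 member 37.5 kb away, although it lay nearer to Haao, and Rcor1, the CoREST scaffold, had one 46.2 kb away (8.69e-25). Hdac1 had 3 members within 100 kb, the strongest at 7.27e-10, and Hdac2 had none.

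In the stroma list Meis1 had a member 6.7 kb away (1.99e-27), Pdgfra one 83.5 kb away (5.21e-26) and Ntn1 one 12.0 kb away (1.92e-21). In the ureteric bud list the leaders were Wnt7b (49.8 kb, 2.86e-31), Wnt9b (80.0 kb, 1.88e-21), the signal from the bud that induces nephrons, and Etv4 (5.3 kb, 7.46e-18). The leaders of the podocyte and tubule list had larger values than these, that is weaker islands. They were Aqp1 at 71.6 kb (9.16e-16), Slc5a2 at 33.5 kb (2.46e-13) and Nphs1, which encodes nephrin, at 84.2 kb (7.60e-13). Those of endothelium and blood were also weaker, led by Cdh5 at 72.2 kb (5.60e-13) and Erg at 98.0 kb (1.89e-12). The podocyte and endothelium lists had only 12 and 16 members, against 32 for stroma and 26 for ureteric bud. Their median values were 6.98e-08 and 1.02e-07, between 6.63e-09 for ureteric bud and 1.58e-07 for stroma. In the distant lineages Nkx2-5, a heart factor, had a member 39.8 kb away (3.16e-26), Syt1, a synaptic vesicle protein, one 13.2 kb away (9.37e-21) and Neurog1, a proneural factor, one 27.1 kb away (5.75e-16).

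Most genes had few members: 62.3% of autosomal genes had none within 100 kb, 23.2% had 1 and 58 genes had 6 or more. Spsb1, a substrate adaptor of ubiquitin ligases, had the most, with 10 members covering 19.6 kb beside 4 Hdac2 islands, and their values ran from 8.90e-19 to 1.43e-04. Katnal1, a microtubule-severing ATPase subunit, had 9, and Arf6, a small GTPase, and Rere, a nuclear receptor corepressor that recruits deacetylases, had 8 each. Basp1, Ets2, Foxc2 and Foxl1 had 7 each, and the last pair are neighbours that share theirs. All 8 of these genes also had an Hdac1 and an Hdac2 island at the gene or within 1 kb.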

How the data were processed

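ChIP-seq of cultured wild-type nephron progenitor cells gave 1 Hdac1 and 1 Hdac2 library, each from 500 pg of DNA with 12 amplification cycles and 1 to 3 more, per the labels' protocols. Extra cycles make reads that are not independent molecules. FastQC, BWA 0.7.5a, SAMtools 1.3.1, bedtools 2.17, SICER and build mm10 are named per the submitters' processing notes; no source names SICER's settings or background library. The authors deposited 1 p-value or q-value per island, and which of the 2 is not stated. Depth is unknown.

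Islands were compared by position with RefSeq genes (GRCm38.p6) in Python 3.11.15 with pandas 2.3.3 and scipy 1.17.1. Distances run edge to edge and were checked on simulated islands against bedtools 2.31.1. Shares carry 95% Wilson intervals and medians order-statistic intervals. With 1 library per antibody no test was made. Named were the 10 strongest members, the strongest non-coding genes per class, list genes with a member within 100 kb led by the strongest 5, the 5 genes with the most members (with ties) and the 3 farthest members; other names were chosen after their values were seen. The members and lists were chosen with earlier results of these data known. Alternatives varied the strength, Hdac2, gene and width conditions. No genome was used, so island sequence is not printed.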

Additional observations from a re-analysis of the deposited data

Results flagged for a closer look

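Chromosomes X and Y lie outside the rule but hold islands that meet its other conditions. There were 66 such islands on X, of 470 Hdac1 islands there, and 6 on Y, of 17. The 66 on X had a median value of 2.03e-12 and a median width of 1.3 kb, and the strongest had a value of 8.00e-99, below the lowest of the autosomal members. The 6 on Y had a median value of 1.04e-02. Neither control library was analysed here.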

How the results depend on the processing

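Each of 6 summary values was recomputed under the alternatives, with no replicate to set the scale of a change. Keeping the stronger 50% of Hdac1 islands left 655 members, a median of 25.4 kb to the nearest gene, 37.9% at a non-coding gene, a median value of 9.37e-21 and 4 progenitor genes with a member within 100 kb. Requiring no Hdac2 island within 5 kb gave 37.9 kb to the gene and 13.0% within 10 kb of Hdac2. Counting Hdac2 only where it covers at least 50% of the island gave 28.3% within 10 kb and a median value of 2.76e-09. Using the stronger 50% of Hdac2 islands gave 31.5% at a non-coding gene, 14.2% within 10 kb of Hdac2 and a median value of 1.80e-09. Gene spans without a window gave 33.3 kb, a 5 kb gene window gave 46.2 kb and 21.2% within 10 kb of Hdac2, and non-coding spans without a window 27.4%. Each setting changes which islands are admitted, what they are measured against, or both. The non-coding span setting kept the same members and changed only what counts as at a gene. The number of members stayed between 4753 and 6718 under the other 8 settings, and the progenitor count between 20 and 25 under the same 8. The progenitor count was 19 within 50 kb, 29 within 250 kb and 25 when only nearest genes counted. The share over all genes was not recomputed under these settings, so these counts have no background beside them. Unknown depth limits every absence of Hdac2: an island below the caller's threshold counts as none. No paired analysis was possible because each antibody has 1 library.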
